A study of Mus musculus with 24 samples.

Results

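*Nlrp3*, *Nlrp6*, *Nlrc4*, *Pycard*, *Casp1*, *Casp4*, *Gsdmd*, *Il1a* and *Il1b*, which encode inflammasome components, their gasdermin pore and the IL-1 cytokines, were followed by name through 24 RNA-seq libraries of mouse ileum. They are 9 of the 39056 genes in the count table, and all 9 were found in it. RNA came from live CD45+ cells, which are hematopoietic, and from live CD45- cells, a mix of epithelium, endothelium and stroma, sorted after lamina propria cells had been pooled with part of the intestinal epithelial cell (IEC) fraction. The C57BL/6 mice, 9.0 to 10.3 weeks of age, had 4 genotypes. The labels write those with intact *Hoil1* as Hoil1+/+Il4raflox/flox or, with the recombinase, Hoil1+/+Il4raflox/flox+Vil1cre. They write those without it as Hoil1-/-Il4raflox/flox or, again with the recombinase, Hoil1-/-Il4raflox/flox+Vil1cre. There were 3 libraries for each genotype and fraction. All mice carried loxP-flanked *Il4ra*, called f/f here. Mice that also had *Vil1*-cre, which is active in IECs, are called ΔIEC and keep *Il4ra* in other cells. *Hoil1*-/- mice carry a mutant *Hoil1* in all cells. HOIL1 is a subunit of LUBAC, the ligase that builds linear ubiquitin chains, and per the study the mutant still makes a low level of an N-terminal part of the protein, so these mice model a partial loss of LUBAC. Replicate numbers follow deposition order and pair no libraries. The labels do not say which libraries share a mouse, so n counts libraries, and p-values measure only the spread between these libraries. The study left out 3 libraries as outliers, namely CD45+ *Hoil1*-/- f/f replicate 1, CD45+ *Hoil1*-/- ΔIEC replicate 3 and CD45- *Hoil1*-/- f/f replicate 3. Levels below are for all 24 libraries and tests are for the 21 kept.

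Inflammasomes are cytosolic complexes in which a sensor protein, once triggered, recruits the adaptor ASC and caspase-1. The caspase then cuts pro-IL-1β and pro-IL-18 to their active forms and cuts gasdermin D, whose N-terminal part forms pores in the plasma membrane and can end in pyroptosis. In the intestine, myeloid cells are a known source of IL-1β, whereas epithelial cells have their own inflammasome sensors that respond to bacteria.

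Total counts on genes were 14938629 to 76807504 per CD45+ library and 6028275 to 68345191 per CD45- library. Levels are CPM (counts-per-million of the TMM-scaled library size). A floor of 3 counts, for counting error only, was 0.0381 to 0.186 CPM in CD45+ and 0.0365 to 0.410 CPM in CD45- libraries. A marker is called detected in a library where it had any count, also below this floor. *Rbck1*, which encodes HOIL1, was at 0 to 15.9 CPM in the *Hoil1*-/- and 72.9 to 159 CPM in the *Hoil1*+/+ libraries. *Il4ra* in CD45- cells ranged from 55.9 to 156 CPM in f/f and from 45.0 to 128 CPM in ΔIEC libraries, and these whole-gene counts of mixed cells do not check the deletion in IECs. *Ptprc*, which encodes CD45, was at 250 to 757 CPM in CD45+ and 0 to 16.2 CPM in CD45- libraries. The CD45- libraries differed in makeup. The summed level of 8 epithelial markers ran from 1219 to 12991 CPM among them, with all 8 markers detected in each library, and that of 8 endothelial markers from 883 to 5749 CPM. In bulk samples such as these, fewer cells of a type and less RNA per cell cannot be told apart.

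The first comparison set CD45+ against CD45- cells, to show which of the 9 genes belonged to which compartment of the ileum. *Nlrp3*, *Il1a* and *Il1b* were found nearly only in CD45+ cells, *Nlrp6* was found mainly in CD45- cells, and *Nlrc4*, *Pycard*, *Casp1*, *Casp4* and *Gsdmd* were present in every library of both fractions. By edgeR's quasi-likelihood test with Benjamini-Hochberg adjustment, 5 of the 9 genes differed at an adjusted p under 0.05, beside 49.6% of the 18778 genes tested. Of them, 3 were higher in CD45+ cells, where 24.5% of all genes were, and 2 were lower, where 25.1% were. The values of the fractions did not overlap in any of the 24 libraries for 3 of the 9 genes, *Nlrp3*, *Nlrp6* and *Il1b*, beside 14.4% of all genes. The share of these genes called is thus close to the background of a comparison in which 49.6% of all genes differed. The levels below, not the count, are the result.

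**Figure D1:**
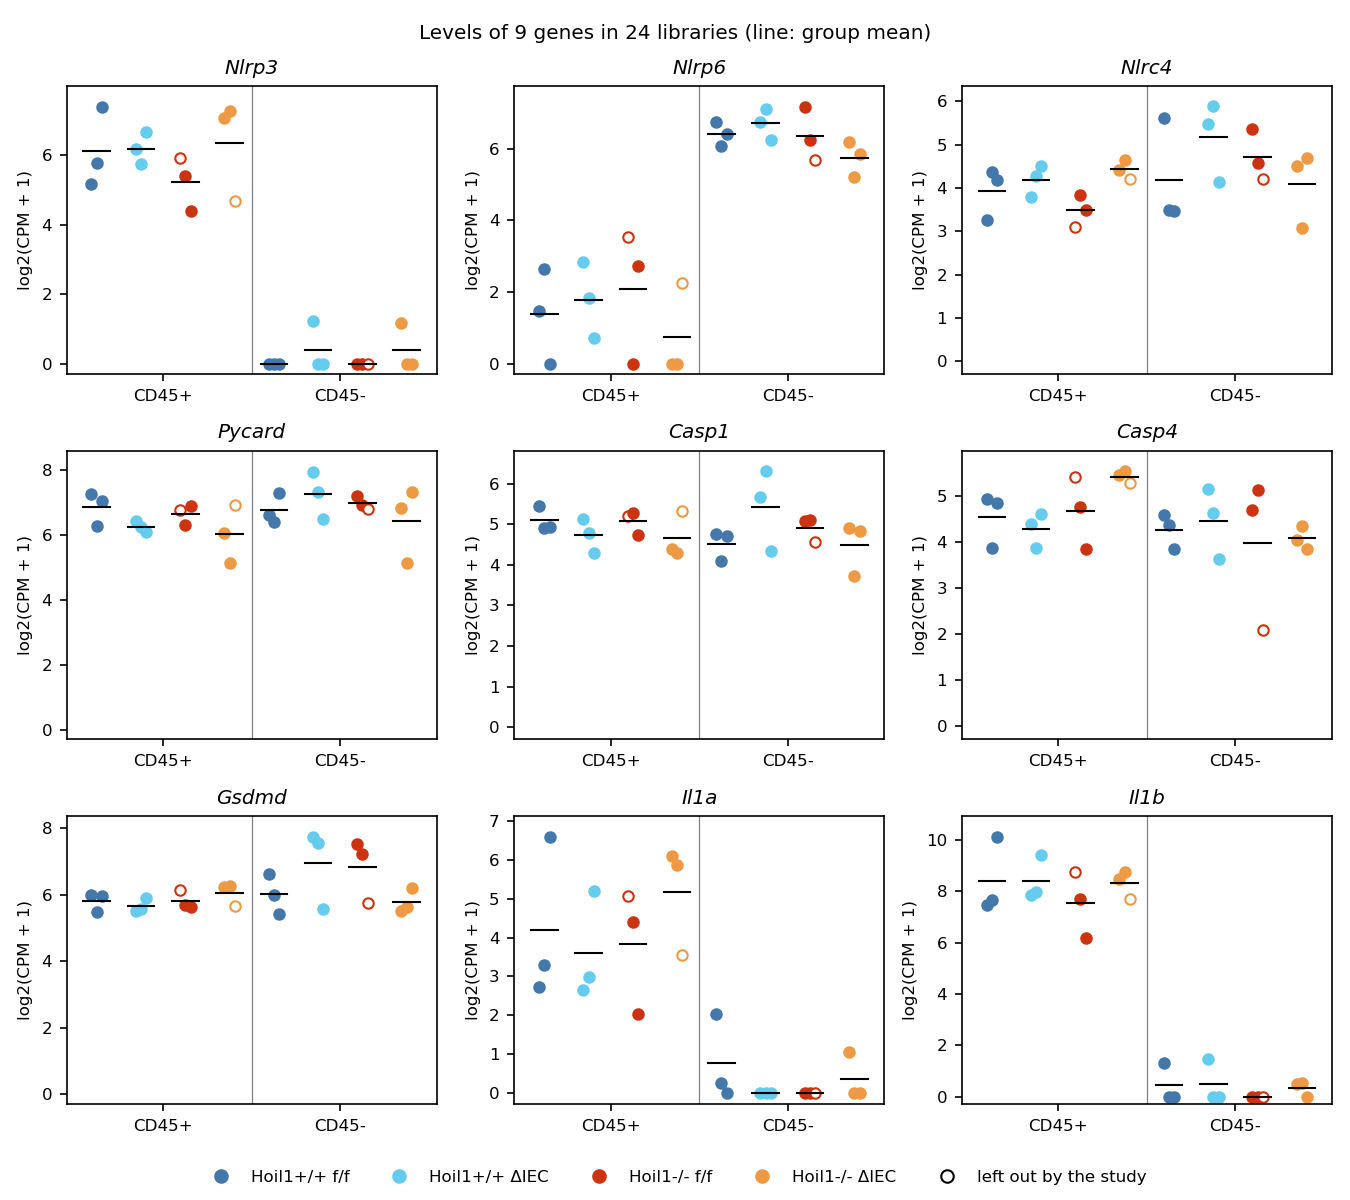
Levels of the 9 genes in each library, as log2(CPM + 1), for 4 genotypes in CD45+ cells at the left of each panel and CD45- cells at the right. Points are libraries, open points are the 3 libraries that the study left out, and black lines are means of 3. *Nlrp3*, *Il1a* and *Il1b* lie at or near 0 in CD45- libraries, *Nlrp6* lies at or below 10.6 CPM in CD45+ libraries, and the other 5 genes overlap between the fractions.

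Among the sensors, *Nlrp3* responds to a wide range of membrane and danger signals, and in mouse it is best known from macrophages and other myeloid cells. In GRCm38 it occupies 59541568 to 59566956 on chromosome 11, plus strand. In the 12 CD45+ libraries it was lowest at 20.0 CPM, had a median of 56.8 CPM and was highest at 168 CPM. In CD45- cells, 10 of 12 libraries had no *Nlrp3* count, and *Hoil1*+/+ ΔIEC replicate 1 and *Hoil1*-/- ΔIEC replicate 1 had 14 and 27 counts, or 1.38 and 1.25 CPM. The lowest CD45+ library was thus 14.5-fold above the highest CD45- library, and the mean levels of 76.1 ± 50.8 and 0.219 ± 0.512 CPM (SD, n = 12 each) differed 347-fold. The difference had an adjusted p of 5.31e-06 by edgeR's quasi-likelihood test.

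*Nlrp6* encodes a sensor described mainly in intestinal epithelium, where it has been tied to mucus secretion and defense against microbes. Its gene occupies 140920902 to 140929192 on chromosome 7, plus strand. In CD45- libraries it was lowest at 35.9 CPM, had a median of 74.8 CPM and was highest at 144 CPM. In CD45+ cells it had no count in 4 of 12 libraries, *Hoil1*+/+ f/f replicate 3, *Hoil1*-/- f/f replicate 2 and *Hoil1*-/- ΔIEC replicates 1 and 2, and it reached 10.6 CPM in *Hoil1*-/- f/f replicate 1, a library left out by the study. The means of 84.3 ± 33.5 and 3.02 ± 3.34 CPM (SD, n = 12 each) differed 27.9-fold, or 39.8-fold in the 21 kept libraries, with an adjusted p of 3.42e-05 by edgeR's quasi-likelihood test. Epithelial markers were not absent from CD45+ libraries, where 6 to 8 of the 8 were detected in each and summed to 60.3 to 449 CPM. The 4 CD45+ libraries with the most *Nlrp6*, from 5.26 to 10.6 CPM, had sums of 336 to 449 CPM, and the 4 with none had sums of 60.3 to 154 CPM. What part these markers had in the *Nlrp6* of CD45+ cells was not tested.

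*Nlrc4*, at 74425438 to 74459142 on chromosome 17 (minus strand), encodes the sensor that pairs with NAIP proteins to detect bacterial flagellin and secretion systems. It was at 7.60 to 24.1 CPM in CD45+ and 7.38 to 58.0 CPM in CD45- libraries. The fractions overlapped, and the log2 fold change of CD45+ over CD45- cells was -0.72 (standard error [SE] 0.34, adjusted p = 0.0899, edgeR's quasi-likelihood test). This difference was past the threshold over all 24 libraries, at -0.74 (adjusted p = 0.0467).

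*Pycard* encodes ASC, the adaptor between sensors and caspase-1, and occupies 127989708 to 127993867 on chromosome 7, minus strand. It was at 34.0 to 151 CPM in CD45+ and 34.1 to 247 CPM in CD45- libraries, a difference of -0.63 on the log2 scale (SE 0.26, adjusted p = 0.0605, edgeR's quasi-likelihood test). *Casp1*, the protease of the canonical inflammasome, and *Casp4*, the mouse caspase-11 that binds cytosolic lipopolysaccharide, are neighbours on chromosome 9 (plus strand), at 5298517 to 5307265 and 5308828 to 5336783, with 1562 bases between them. *Casp1* was at 18.4 to 42.9 CPM in CD45+ and 12.1 to 77.7 CPM in CD45- libraries, a difference of -0.16 on the log2 scale (SE 0.23, adjusted p = 0.678, edgeR). *Casp4* was at 13.4 to 45.3 CPM and 3.23 to 34.3 CPM, a difference of 0.23 on the log2 scale (SE 0.22, adjusted p = 0.452, edgeR). For these caspases a difference of 1 on the log2 scale lay outside 2 standard errors of the estimate, which ran from -0.63 to 0.31 for *Casp1* and from -0.21 to 0.67 for *Casp4*.

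*Gsdmd*, at 75862327 to 75867408 on chromosome 15 (plus strand), encodes gasdermin D. It was the steadiest of the 9 genes in CD45+ cells, where it ran from 43.3 to 75.5 CPM around a mean of 57.3 ± 11.7 CPM (SD, n = 12). In CD45- cells it ranged from 41.8 to 214 CPM with a mean of 100.1 ± 64.9 CPM (SD, n = 12). The log2 fold change of CD45+ over CD45- cells was -0.79 (SE 0.23, adjusted p = 0.00925, edgeR's quasi-likelihood test), although the lower CD45- libraries overlapped the CD45+ range.

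The IL-1 genes lie on the minus strand of chromosome 2, *Il1a* from 129299610 to 129309972 and *Il1b* from 129364570 to 129371139, with 54597 bases between them. *Il1b* was at 72.8 CPM in the lowest CD45+ library, had a median of 242 CPM and was at 1121 CPM in the highest. In CD45- cells, 8 of 12 libraries had no count and the other 4 had 9 to 18 counts, at most 1.77 CPM. The lowest CD45+ library was 41.1-fold above the highest CD45- library, and the means of 364 ± 288 and 0.344 ± 0.627 CPM (SD, n = 12 each) differed 1058-fold (adjusted p = 2.18e-06, edgeR's quasi-likelihood test). *Il1a*, the membrane-associated alarmin of the family, was at 3.06, 15.5 and 96.4 CPM in the lowest, median and highest CD45+ libraries. It had no count in 9 of 12 CD45- libraries and 25, 4 and 23 counts in *Hoil1*+/+ f/f replicates 1 and 2 and *Hoil1*-/- ΔIEC replicate 1. The first of these was at 3.12 CPM, just above the lowest CD45+ library, so for *Il1a* the fractions overlapped by that library. The means of 29.2 ± 30.2 and 0.364 ± 0.920 CPM (SD, n = 12 each) differed 80.2-fold (adjusted p = 0.000147, edgeR's quasi-likelihood test). A noncoding gene annotated over *Il1a* on the opposite strand, *Gm14023*, had 325 counts over all 24 libraries together, and whether the counting used strand is not given in the sources used here.

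Of 6 pan-hematopoietic markers, 3 to 6 were detected in each CD45- library, where they summed to 3.26 to 124 CPM against 3111 to 3919 CPM in CD45+ libraries. The 4 CD45- libraries with *Il1b* counts had sums of 10.0 to 38.8 CPM, and the library with the highest sum had no count of *Il1b*, *Il1a* or *Nlrp3*. Of 8 neutrophil markers, *Ly6g*, *Mmp8* and *Ngp* had no count in any CD45- library, and all 8 summed to 0 to 14.6 CPM. The highest sum was in the left-out *Hoil1*-/- f/f replicate 3, which had no *Il1b* count. Among the 4 libraries with *Il1b* counts, the sums were 2.25 CPM in *Hoil1*+/+ f/f replicate 1 and 0 CPM in *Hoil1*+/+ ΔIEC replicate 1. They were 0.881 and 0.335 CPM in *Hoil1*-/- ΔIEC replicates 1 and 2. The part of residual hematopoietic RNA in the few counts of *Il1b*, *Il1a* and *Nlrp3* was not tested.

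Because transcripts of the 9 genes differ in length from 1356 to 4729 bases, levels were compared between genes only per kb of the longest coding transcript. In CD45+ cells the order by mean CPM per kb was *Il1b* (269), *Gsdmd* (32.0), *Pycard* (24.4), *Casp1* (19.9), *Casp4* (19.4), *Nlrp3* (18.9), *Il1a* (14.8), *Nlrc4* (3.37) and *Nlrp6* (0.682). *Il1b* was above *Gsdmd* in 12 of 12 libraries, by 2.76 ± 0.90 on the log2 scale (SD, n = 12). From *Gsdmd* to *Il1a*, no gene was above its next neighbour in more than 9 of 12 libraries, and *Casp4* was above *Nlrp3* in 5. Mean log2 ratios of these neighbours, 0.108 to 0.845, were each below their SD between libraries, so the order there changed from library to library. *Nlrc4* was above *Nlrp6* in 11 of 12 libraries.

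In CD45- cells the order was *Gsdmd* (55.8), *Pycard* (33.2), *Casp1* (20.6), *Nlrp6* (18.998), *Casp4* (13.7) and *Nlrc4* (5.66 CPM per kb), followed by *Il1b*, *Il1a* and *Nlrp3* at 0.0545 to 0.254 CPM per kb. *Gsdmd* was above *Pycard* in 9 of 12 libraries, by 0.62 ± 0.79 on the log2 scale (SD, n = 12). *Pycard* was above *Casp1* and *Casp4* above *Nlrc4* in 11 of 12 libraries each. *Casp1* and *Nlrp6* were each the higher of the pair in 6 of 12 libraries and could not be ordered. *Pycard* may be understated per kb, since its GENCODE gene spans 4160 bases and its RefSeq gene 2495. Its order relative to *Gsdmd* is therefore not settled.

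**Figure D2:**
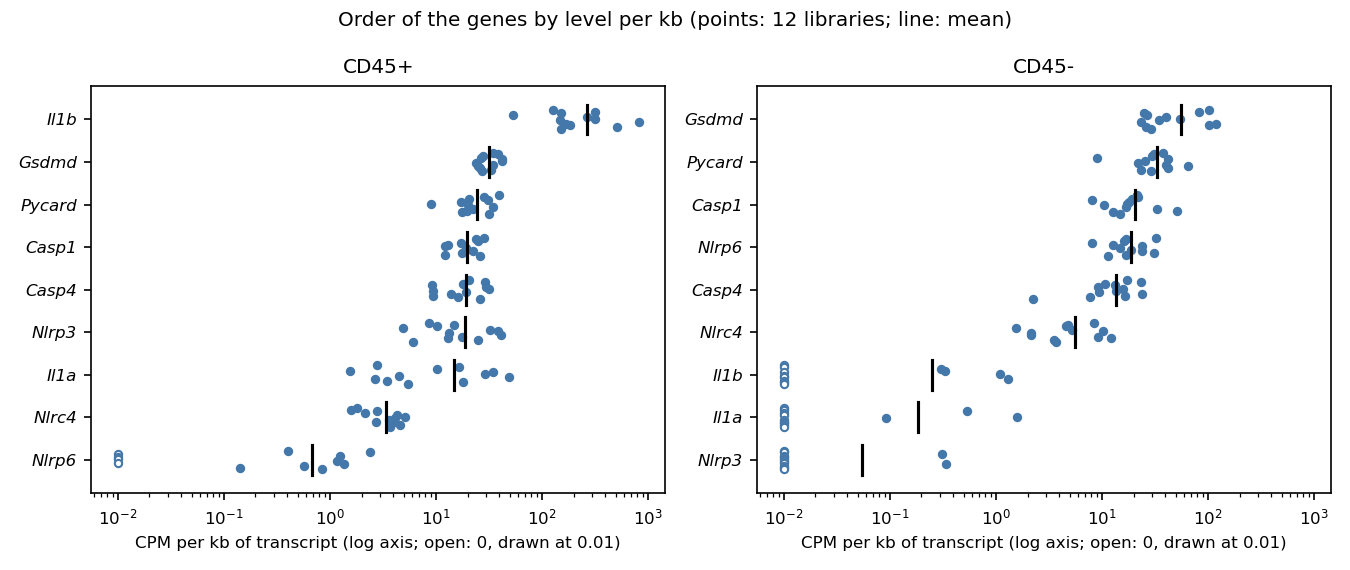
Level of each gene in CPM per kb of its longest coding transcript on a log axis, with genes ordered by their mean, in CD45+ cells at the left and CD45- cells at the right. Points are 12 libraries, open points stand for 0 and lines are means. *Il1b* has the highest mean in CD45+ cells, at 269 CPM per kb. *Gsdmd* has the highest mean in CD45- cells, at 55.8 CPM per kb, and was above *Pycard* in 9 of 12 libraries.

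Sequence upstream of the genes found in 1 fraction is shown next, since *Il1a*, *Il1b* and *Nlrp3* share a fraction that *Nlrp6* does not. RefSeq promoters of GRCm38.p6 matched 8 of the 9 genes, all but *Gsdmd*. The 250 bases before each start were searched on both strands for TATAAA, for GGNNNTTCC (NF-κB-like), GAGGAA (ETS core), TGANTCA (AP-1-like), CAAAGNNCA (HNF4-like) and TTTATNG (CDX2-like). Capitals mark every match.
*Il1a*, chr2:129309973-129310222, minus strand: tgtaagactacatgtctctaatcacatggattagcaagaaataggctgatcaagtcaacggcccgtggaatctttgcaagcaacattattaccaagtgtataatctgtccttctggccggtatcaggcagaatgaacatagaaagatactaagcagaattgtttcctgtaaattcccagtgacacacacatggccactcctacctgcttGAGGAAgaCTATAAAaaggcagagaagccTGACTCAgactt
*Il1b*, chr2:129371140-129371389, minus strand: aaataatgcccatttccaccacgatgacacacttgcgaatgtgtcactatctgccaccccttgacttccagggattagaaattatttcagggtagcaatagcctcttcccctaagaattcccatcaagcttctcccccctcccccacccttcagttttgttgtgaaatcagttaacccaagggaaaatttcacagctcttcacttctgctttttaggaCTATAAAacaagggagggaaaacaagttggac
*Nlrp3*, chr11:59541319-59541568, plus strand: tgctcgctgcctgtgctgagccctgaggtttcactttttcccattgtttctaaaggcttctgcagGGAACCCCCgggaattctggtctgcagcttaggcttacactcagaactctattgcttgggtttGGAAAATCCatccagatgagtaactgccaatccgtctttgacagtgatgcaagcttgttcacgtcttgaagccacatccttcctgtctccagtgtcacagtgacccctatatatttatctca
*Nlrp6*, chr7:140920652-140920901, plus strand: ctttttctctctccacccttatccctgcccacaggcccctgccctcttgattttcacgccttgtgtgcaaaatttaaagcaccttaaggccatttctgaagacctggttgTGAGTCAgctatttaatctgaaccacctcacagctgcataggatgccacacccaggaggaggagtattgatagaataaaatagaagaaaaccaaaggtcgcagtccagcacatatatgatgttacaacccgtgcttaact
*Il1a* and *Il1b* both held TATAAA, 32 to 27 and 31 to 26 bases before the start, a motif found in 12.4% of the 32851 promoters of the table. In both genes the CDX2-like match on the other strand, whose letters 9.81% of promoters held, overlapped that same TATAAA. *Il1a* also held the ETS core (23.3% of promoters) and an AP-1-like TGACTCA 12 to 6 bases before its start, and *Nlrp6* held TGAGTCA 140 to 134 bases before its own (6.75% of promoters held TGANTCA, with any base at N). *Nlrp3* held 2 NF-κB-like matches, which 15.7% of promoters had at least once, and the 250 bases before its other RefSeq start, chr11:59542436-59542685, held 1 NF-κB-like match and 3 of the ETS core. None of the promoters of these genes held the HNF4-like letters, which 5.49% of all promoters did. Motif matches are descriptions of these letters and were not linked to binding.

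Other genes of the pathway were taken as lists, with 57 genes in all. Of these 56 were in the table and 52 were tested between the fractions, where 25 were higher and 13 lower in CD45+ cells (73.1% called, beside 49.6% of all genes). Among 12 other sensors, 5 were higher and 4 lower, with a median log2 fold change of 0.77. Of 13 other effectors tested, 4 were higher and 7 lower (median -1.79), and of 8 guanylate-binding protein genes and their regulators 3 were higher and none lower (median 0.43). Of 4 IL-1 family cytokines and antagonists tested, 3 were higher and none lower (median 4.44), and of 15 receptor and signalling genes 10 were higher and 2 lower (median 1.13). The median over all genes was 0.03.

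The list genes with the smallest adjusted p that were higher in CD45+ cells included *Mefv*, the gene of pyrin, an inflammasome sensor of altered RhoA signalling. It had a mean of 33.7 CPM and reached 67.2 CPM in CD45+ libraries and had no count in any of 12 CD45- libraries. *Il1r2*, the decoy receptor of IL-1, was at 70.5 ± 32.3 CPM against 0.302 ± 0.638 CPM (SD, n = 12 each), and *Il1rn*, the IL-1 receptor antagonist, was at 83.8 ± 49.9 against 0.777 ± 1.03 CPM (SD, n = 12 each). Their adjusted p values were 2.62e-07 and 2.78e-07 by edgeR's quasi-likelihood test. *Irf8*, a transcription factor of myeloid and B cells, rose by 2.36 on the log2 scale (SE 0.21, adjusted p = 1.48e-07, edgeR) and *Tab2*, an adaptor of the TAK1 kinase, by 1.58 (SE 0.15, adjusted p = 2.29e-07, edgeR).

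Lower in CD45+ cells was *Il1r1*, the signalling receptor of IL-1, at 9.40 ± 7.55 against 65.6 ± 33.9 CPM (SD, n = 12 each). The signalling receptor was therefore most abundant in the fraction that had almost no *Il1a* or *Il1b*, and the decoy receptor and antagonist in the fraction that had both cytokines. *Gsdme*, another gasdermin, was at 2.47 ± 1.90 against 26.9 ± 24.4 CPM (SD, n = 12 each), *Naip1*, a partner of NLRC4, at 1.19 ± 1.42 against 20.8 ± 16.2 CPM, and *Casp12* at 2.14 ± 2.37 against 13.5 ± 7.18 CPM (SD, n = 12 each). Adjusted p for these 4 genes was 5.06e-06, 6.16e-06, 3.62e-05 and 6.36e-05 in that order (edgeR's quasi-likelihood test).

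Within CD45+ cells, the 9 genes fell into those that varied widely between libraries and those that did not. *Il1a* had a coefficient of variation of 103% over 12 libraries, *Il1b* of 79.1% and *Nlrp3* of 66.7%, whereas *Gsdmd* had 20.3%, *Casp1* 27.9%, *Nlrc4* 33.5%, *Pycard* 35.9% and *Casp4* 42.2%. *Nlrp6*, without a count in 4 of these libraries, had 111%. *Hoil1*+/+ f/f replicate 3 was the highest library for *Nlrp3* (168 CPM), *Il1a* (96.4 CPM) and *Il1b* (1121 CPM), and *Hoil1*-/- f/f replicate 3 the lowest (20.0, 3.06 and 72.8 CPM). These 3 genes therefore stood high and low in the same libraries, across genotypes.

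*Il1b* was at 175, 200 and 1121 CPM in the 3 *Hoil1*+/+ f/f libraries and at 230, 254 and 690 CPM in the *Hoil1*+/+ ΔIEC libraries. In *Hoil1*-/- f/f cells it was at 427, 205 and 72.8 CPM, the first from a library that the study left out, and in *Hoil1*-/- ΔIEC cells at 360, 430 and 208 CPM, the last left out by the study. One library in each *Hoil1*+/+ group was far above its companions, and the ranges of all 4 genotypes overlapped. *Nlrp3* was at 34.9, 53.9 and 168 CPM, at 70.9, 52.6 and 101 CPM, at 59.6, 41.3 and 20.0 CPM and at 132, 154 and 24.7 CPM in the same order of groups and libraries. Here too, the library highest in each *Hoil1*+/+ group was replicate 3. *Il1a* was at 5.59, 8.84 and 96.4 CPM, at 5.25, 6.86 and 35.5 CPM, at 32.6, 20.2 and 3.06 CPM and at 68.0, 57.4 and 10.7 CPM.

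**Figure D3:**
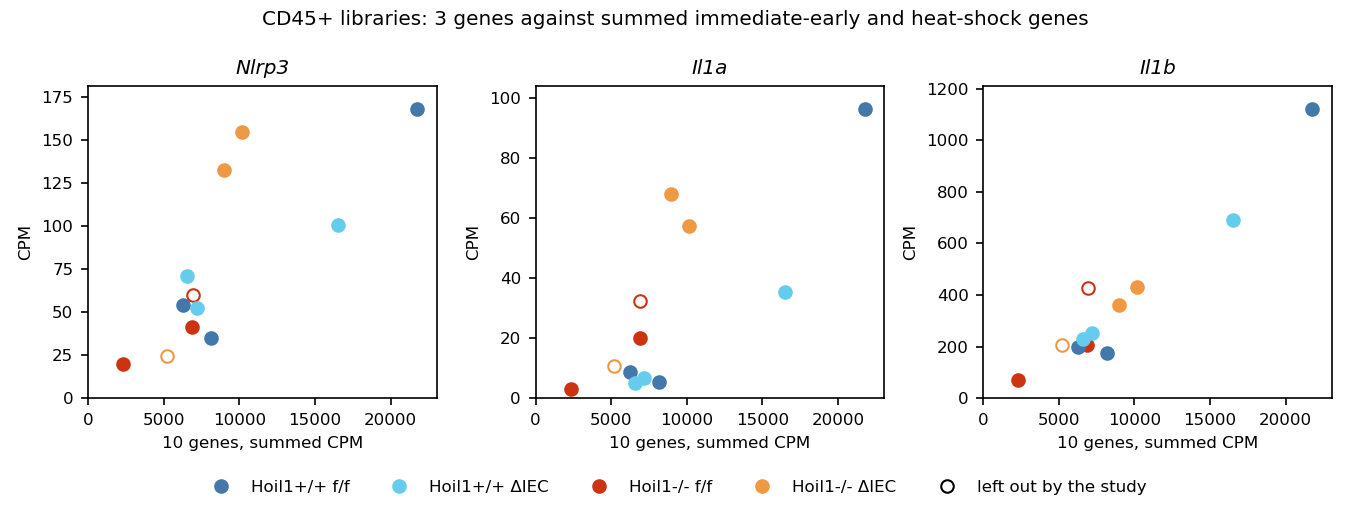
Level in CPM of *Nlrp3*, *Il1a* and *Il1b* in the 12 CD45+ libraries, on the vertical axes, against the summed CPM of 10 immediate-early and heat-shock genes on the horizontal axes. Colors are genotypes and open points are libraries that the study left out. *Hoil1*+/+ f/f replicate 3 stands at the upper right of each panel at a sum of 21754 CPM, and *Hoil1*-/- f/f replicate 3 at the lower left at 2315 CPM.

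Other measures moved with these 3 genes. The 10 immediate-early and heat-shock genes, which rise quickly when cells are stimulated or handled, were all detected in each library and summed to 2315 to 21754 CPM. The 4 libraries with the highest sums, *Hoil1*+/+ f/f replicate 3 (21754 CPM), *Hoil1*+/+ ΔIEC replicate 3 (16517 CPM) and *Hoil1*-/- ΔIEC replicates 2 and 1 (10150 and 8970 CPM), were also the 4 highest for *Nlrp3* and *Il1a*. For *Il1b* the left-out *Hoil1*-/- f/f replicate 1, with a sum of 6929 CPM, came between *Hoil1*-/- ΔIEC replicates 2 and 1. By genotype the sums were 6254 to 21754 CPM in *Hoil1*+/+ f/f, 6577 to 16517 CPM in *Hoil1*+/+ ΔIEC, 2315 to 6929 CPM in *Hoil1*-/- f/f and 5211 to 10150 CPM in *Hoil1*-/- ΔIEC libraries. The part of stimulation or handling in the levels of *Nlrp3*, *Il1a* and *Il1b* was not tested.

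Markers of macrophages and monocytes, 12 of 12 detected in each library, summed to 4801 to 20596 CPM. The highest sum was in *Hoil1*-/- f/f replicate 1, where *Il1b* was at 427 CPM. The library with the most *Il1b*, *Hoil1*+/+ f/f replicate 3 at 1121 CPM, had a sum of 11911 CPM. By genotype these markers summed to 9064 to 16380 CPM in *Hoil1*+/+ f/f, 4801 to 8272 CPM in *Hoil1*+/+ ΔIEC, 7544 to 20596 CPM in *Hoil1*-/- f/f and 8300 to 14212 CPM in *Hoil1*-/- ΔIEC libraries. Neutrophil markers, of which 5 to 8 of 8 were detected in each library, summed to 35.1 to 321 CPM. They were highest in *Hoil1*+/+ f/f replicate 3 (321 CPM), *Hoil1*+/+ ΔIEC replicate 3 (290 CPM) and *Hoil1*-/- f/f replicate 1 (290 CPM), which are 3 of the 4 libraries with the most *Il1b*. These 3 libraries were also those from mice labelled 9.0 weeks of age, and each was the highest of its group for *Nlrp3*, *Il1a* and *Il1b*. Whether neutrophils or age had a part in this was not tested.

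Genes whose pattern was most like that of each of these 3 over the 12 CD45+ libraries were found by Pearson correlation of log2(CPM + 0.5) among 13863 protein-coding genes, as a description without a test, since the points share libraries, cell makeup and scaling. For *Nlrp3* they were *Plekho2* (r = 0.979), *Il1r2* (r = 0.972) and *Cd274*, which encodes PD-L1 (r = 0.950). For *Il1b* they were *Cebpb* (r = 0.967), *Rgs2* (r = 0.961) and *Zfp36* (r = 0.937), and for *Il1a* they were *Dusp3* (r = 0.961), *Cxcl3* (r = 0.952) and *Ankrd33b* (r = 0.942). *Il1a* and *Il1b* had r = 0.857 with each other, and *Nlrp3* had r = 0.827 with *Il1a* and r = 0.851 with *Il1b*. With *Nlrp3*, *Il1a* and *Il1b*, *Casp1* had r = -0.604, -0.461 and -0.353, and *Pycard* r = -0.536, -0.373 and -0.224. For *Casp4*, the most alike were *Il1rn* (r = 0.939), *Col1a2* (r = 0.925) and *Dok2* (r = 0.924), and *Gsdmd* stood 40th at r = 0.814.

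The next comparison asked whether *Hoil1* affected the 9 genes in CD45+ cells. Averaged over the *Il4ra* genotypes, none passed the adjusted threshold in edgeR's quasi-likelihood test, beside 0.00587% of 17029 genes, and none had an unadjusted p under 0.05, beside 5.85%. *Il1b* was at 267 ± 160 CPM (SD, n = 4) without and 445 ± 383 CPM (SD, n = 6) with intact *Hoil1*, a difference of -0.92 on the log2 scale (SE 0.60, adjusted p = 0.814, edgeR). *Pycard* had -0.46 (SE 0.26), *Casp1* -0.29 (SE 0.22), *Nlrp3* -0.28 (SE 0.42) and *Nlrc4* -0.02 (SE 0.27) on the log2 scale. The plain means of *Nlrp3* and *Nlrc4* stood the other way, at 87.1 and 17.05 CPM in *Hoil1*-/- against 80.1 and 16.4 CPM in *Hoil1*+/+ cells. *Casp4* had 0.47 (SE 0.28), *Gsdmd* 0.19 (SE 0.16) and *Il1a* 0.16 (SE 0.87). The adjusted p of the 9 genes was 0.783 or more. For *Gsdmd* the estimate within 2 standard errors ran from -0.13 to 0.50, whereas for *Il1a* it ran from -1.59 to 1.90, so the cytokine was estimated far less closely than the gasdermin.

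Within f/f mice, 0 of the 9 genes passed (0% of all genes did) and 1 had an unadjusted p under 0.05 (5.27% of all genes did). This was *Nlrp3*, at 30.7 ± 15.1 CPM (SD, n = 2) without against 85.5 ± 71.8 CPM (SD, n = 3) with intact *Hoil1*, a difference of -1.48 on the log2 scale (SE 0.62, unadjusted p = 0.0392, adjusted p = 0.836, edgeR). The groups overlapped. The means of *Il1b* in f/f mice were 139 ± 93.7 and 499 ± 539 CPM (SD, n = 2 and 3), a difference of -1.85 on the log2 scale (SE 0.88, adjusted p = 0.836, edgeR). At equal age, *Il1b* was at 205 CPM in the *Hoil1*-/- and 200 CPM in the *Hoil1*+/+ f/f library of 9.9 weeks, and at 427 and 1121 CPM in those of 9.0 weeks, of which the first was left out by the study. *Nlrp3* was at 41.3 and 53.9 CPM at 9.9 weeks and at 59.6 and 168 CPM at 9.0 weeks in the same pairs. No other age held both *Hoil1* genotypes with the same *Il4ra* genotype.

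Within ΔIEC mice, 0 of the 9 genes passed (0% of all genes) and 3 had an unadjusted p under 0.05 (6.08% of all genes). *Casp4* was at 42.9 and 45.3 CPM in the 2 *Hoil1*-/- libraries kept and at 19.9, 13.5 and 23.4 CPM in the *Hoil1*+/+ libraries. The groups did not overlap, and the left-out *Hoil1*-/- library had 37.6 CPM, also above the *Hoil1*+/+ range. With 2 against 3 libraries, 6 of the 9 genes did not overlap, so this does not set *Casp4* apart. The share over all genes is not given here. The log2 fold change of *Casp4* was 1.21 (SE 0.39, unadjusted p = 0.0119, adjusted p = 0.758, edgeR). *Gsdmd* was at 75.0 and 75.5 CPM against 45.0, 47.1 and 59.4 CPM, a difference of 0.56 on the log2 scale (SE 0.22, unadjusted p = 0.0297, adjusted p = 0.775, edgeR), but the left-out library had 49.2 CPM, within the *Hoil1*+/+ range. The third was *Nlrp6*, without a count in either *Hoil1*-/- library kept and at 6.13, 2.56 and 0.629 CPM in *Hoil1*+/+ cells (unadjusted p = 0.0445, adjusted p = 0.775, edgeR). The left-out library had 3.74 CPM, so the groups overlapped once it was counted. Stromal markers moved with *Casp4* here. Those of fibroblasts, 6 to 8 of 8 detected in each library, summed to 78.0 to 178 CPM in *Hoil1*-/- ΔIEC against 25.9 to 30.0 CPM in *Hoil1*+/+ ΔIEC libraries, and those of smooth muscle and glia to 42.7 to 63.2 against 9.91 to 23.8 CPM. The highest fibroblast sum, 267 CPM, was in the left-out *Hoil1*-/- f/f replicate 1, where *Casp4* was at 41.5 CPM. The part of stromal RNA in the level of *Casp4* was not tested.

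Whether *Hoil1* acted differently in ΔIEC than in f/f mice was tested as an interaction. In CD45+ cells 0 of the 9 genes passed (0% of all genes) and 3 had an unadjusted p under 0.05 (7.01% of all genes). They were *Nlrp3* at 2.41 on the log2 scale (SE 0.85, unadjusted p = 0.0180), *Casp4* at 1.48 (SE 0.56, unadjusted p = 0.0262) and *Gsdmd* at 0.75 (SE 0.32, unadjusted p = 0.0397), with an adjusted p of 0.694 or more by edgeR.

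**Figure D4:**
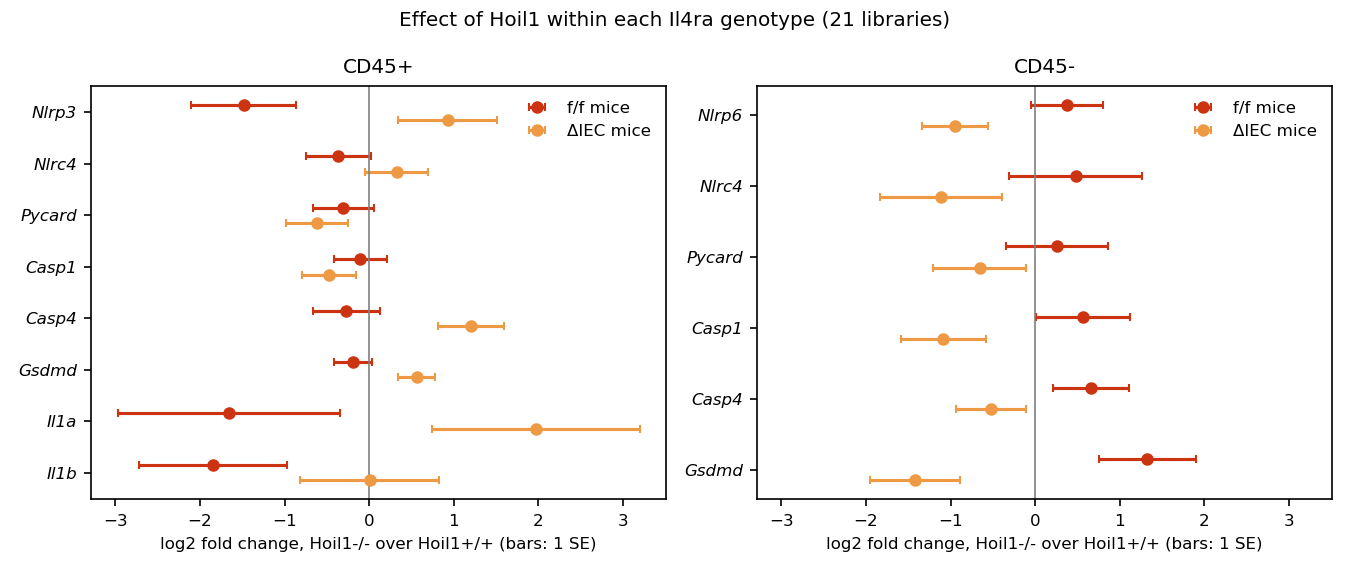
Effect of *Hoil1* on each gene as the log2 fold change of *Hoil1*-/- over *Hoil1*+/+ cells, in f/f mice (red) and ΔIEC mice (orange), for CD45+ cells at the left and CD45- cells at the right. Bars are 1 standard error from edgeR's fit to the 21 kept libraries, and genes with a group without counts are left out. In CD45- cells *Gsdmd* lies at 1.33 in f/f and -1.42 in ΔIEC mice, and none of the effects passed the adjusted threshold.

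For *Il4ra* in CD45+ cells, averaged over the *Hoil1* genotypes, 0 of the 9 genes passed (0.00587% of all genes) and 3 had an unadjusted p under 0.05 (10.6% of all genes). These were *Pycard*, *Nlrp3* and *Casp1*. *Pycard* was at 65.7 ± 19.4 CPM (SD, n = 5) in ΔIEC and 111 ± 32.9 CPM (SD, n = 5) in f/f cells. *Casp1* was also lower in ΔIEC cells, whereas *Nlrp3* was higher. With each library left out in turn, the log2 fold change ran from -0.65 to -0.38 for *Casp1* and from 0.81 to 1.49 for *Nlrp3*. The adjusted p was 0.449 for *Nlrp3* and 0.453 for *Casp1* by edgeR. Within *Hoil1*-/- mice 0 passed (0% of all genes) and 5 had an unadjusted p under 0.05 (7.03% of all genes), in a comparison of 2 libraries with 2. The first of them was *Nlrp3*, at 132 and 154 CPM in ΔIEC and 41.3 and 20.0 CPM in f/f cells, a difference of 2.23 on the log2 scale (SE 0.68, adjusted p = 0.605, edgeR). The left-out libraries, at 24.7 CPM in ΔIEC and 59.6 CPM in f/f cells, lay the other way round, so the groups overlapped when all libraries were counted. DESeq2 called this 1 gene, at an adjusted p of 0.0391, among 196 calls over all genes where edgeR made 0, and the other alternatives did not call it.

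In CD45- cells, the members that could be compared between genotypes were *Nlrp6*, *Nlrc4*, *Pycard*, *Casp1*, *Casp4* and *Gsdmd*. *Nlrp3*, *Il1a* and *Il1b* passed the filter on low counts in the kept libraries but not over all 12, and no fold change is given for them. Averaged over the *Il4ra* genotypes, 0 of the 9 genes passed for *Hoil1* (0.0182% of 16453 genes) and 0 had an unadjusted p under 0.05 (5.28% of all genes). The log2 fold changes of *Hoil1*-/- over *Hoil1*+/+ cells were -0.29 for *Nlrp6* (SE 0.29), -0.32 for *Nlrc4* (SE 0.54), -0.20 for *Pycard* (SE 0.41), -0.26 for *Casp1* (SE 0.38), 0.07 for *Casp4* (SE 0.31) and -0.05 for *Gsdmd* (SE 0.39). Each was smaller than its standard error, and each had an adjusted p of 1.00 by edgeR's quasi-likelihood test.

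*Gsdmd* in f/f mice was at 185 and 150 CPM in the 2 *Hoil1*-/- f/f libraries kept and at 98.2, 62.1 and 41.8 CPM in *Hoil1*+/+ f/f libraries, a difference of 1.33 on the log2 scale (SE 0.57, unadjusted p = 0.0404, adjusted p = 0.371, edgeR). The kept groups did not overlap, as was so for 3 of the 9 genes in this comparison, so this does not set *Gsdmd* apart. The share over all genes is not given here. The left-out *Hoil1*-/- f/f library had 52.6 CPM, within the *Hoil1*+/+ range. In ΔIEC mice *Gsdmd* was at 44.7, 48.5 and 72.3 CPM in *Hoil1*-/- and at 214, 185 and 46.9 CPM in *Hoil1*+/+ libraries, a difference of -1.42 on the log2 scale (SE 0.53, unadjusted p = 0.0209, adjusted p = 0.603, edgeR). Here *Hoil1*+/+ ΔIEC replicate 3 was as low as the *Hoil1*-/- libraries and the groups overlapped. The interaction was -2.75 on the log2 scale (SE 0.78, unadjusted p = 0.00463, adjusted p = 0.132 by edgeR's quasi-likelihood test). It was past the threshold with edgeR's likelihood ratio test (adjusted p = 0.0214), with DESeq2 (adjusted p = 0.0146) and without *Hoil1*+/+ ΔIEC replicate 3 (-3.18, adjusted p = 0.0232). DESeq2 made 1466 calls over all genes there, and edgeR 1199 without that library. The immediate-early and heat-shock genes summed to 1378 to 3000 CPM in *Hoil1*-/- f/f against 7264 to 17418 CPM in *Hoil1*+/+ f/f libraries, without overlap, and to 4598 to 8192 against 3965 to 11763 CPM in ΔIEC libraries. Smooth muscle and glia markers summed to 328 to 1976 against 3142 to 4894 CPM in f/f and to 2054 to 4160 against 1161 to 1931 CPM in ΔIEC libraries, again without overlap. The left-out *Hoil1*-/- f/f replicate 3, at the lower *Gsdmd* level, had the highest immediate-early and heat-shock sum of its group, 3000 CPM. It had the lowest smooth muscle and glia sum, 328 CPM. The part of stimulation, handling or these cells in the level of *Gsdmd* was not tested.

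*Nlrp6* was at 144, 74.5 and 50.6 CPM in *Hoil1*-/- f/f, the last from the left-out library, and at 106, 66.7 and 83.6 CPM in *Hoil1*+/+ f/f libraries. In ΔIEC mice it was at 71.6, 35.9 and 57.1 CPM in *Hoil1*-/- and at 107, 138 and 75.1 CPM in *Hoil1*+/+ libraries, which did not overlap. The log2 fold change in ΔIEC mice was -0.95 (SE 0.39, unadjusted p = 0.0331, adjusted p = 0.628, edgeR), and the interaction was -1.32 (SE 0.58, unadjusted p = 0.0424, adjusted p = 0.227, edgeR).

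Of the 9 genes, 0 passed in CD45- cells for *Hoil1* in f/f mice (0.0365% of all genes did) and 1 had an unadjusted p under 0.05 (13.1% of all genes). For *Hoil1* in ΔIEC mice 0 passed (0.00608%) and 2 had an unadjusted p under 0.05 (7.66%). For the interaction 0 passed (0%) and 3 had an unadjusted p under 0.05 (20.7%), of which *Il1a*, without a count in whole groups, is not read as a result. For *Il4ra*, 0 passed and 0 had an unadjusted p under 0.05 when averaged (0% and 5.9% of all genes). Within *Hoil1*-/- mice 0 passed for *Il4ra* (0.0425%) and 2, *Gsdmd* and *Nlrp6*, had an unadjusted p under 0.05 (17.7%).

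The epithelial markers moved with *Gsdmd* in CD45- cells. The 6 CD45- libraries with the most *Gsdmd*, from 72.3 to 214 CPM, were the 6 with the highest epithelial sums, from 5894 to 12991 CPM, and the other 6, at 41.8 to 62.1 CPM of *Gsdmd*, had sums of 1219 to 3363 CPM. By genotype the sums were 12041 and 12991 CPM in *Hoil1*-/- f/f (3363 CPM in the left-out library), 1880 to 6991 CPM in *Hoil1*+/+ f/f, 1219 to 5894 CPM in *Hoil1*-/- ΔIEC and 3186 to 11954 CPM in *Hoil1*+/+ ΔIEC libraries. They thus stood in the same order between *Hoil1* genotypes as *Gsdmd* did, higher in *Hoil1*-/- cells of f/f and lower in *Hoil1*-/- cells of ΔIEC mice. *Nlrp6* was highest and lowest in the libraries with the highest and lowest epithelial sums, but its order between them differed. It was at 74.5 CPM in *Hoil1*-/- f/f replicate 2, with a sum of 12041 CPM. In *Hoil1*+/+ f/f replicate 3, with a sum of 3020 CPM, it was at 83.6 CPM. Tuft cell markers, of which 6 to 8 of 8 were detected in each library, summed to 674 and 1037 CPM in the *Hoil1*-/- f/f libraries kept and to 26.0 to 66.8 CPM in the other 10. The part of the share of epithelial cells in the *Gsdmd* and *Nlrp6* values was not tested. No age held both *Hoil1* genotypes with the same *Il4ra* genotype in CD45- cells, so age and genotype cannot be told apart there.

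**Figure D5:**
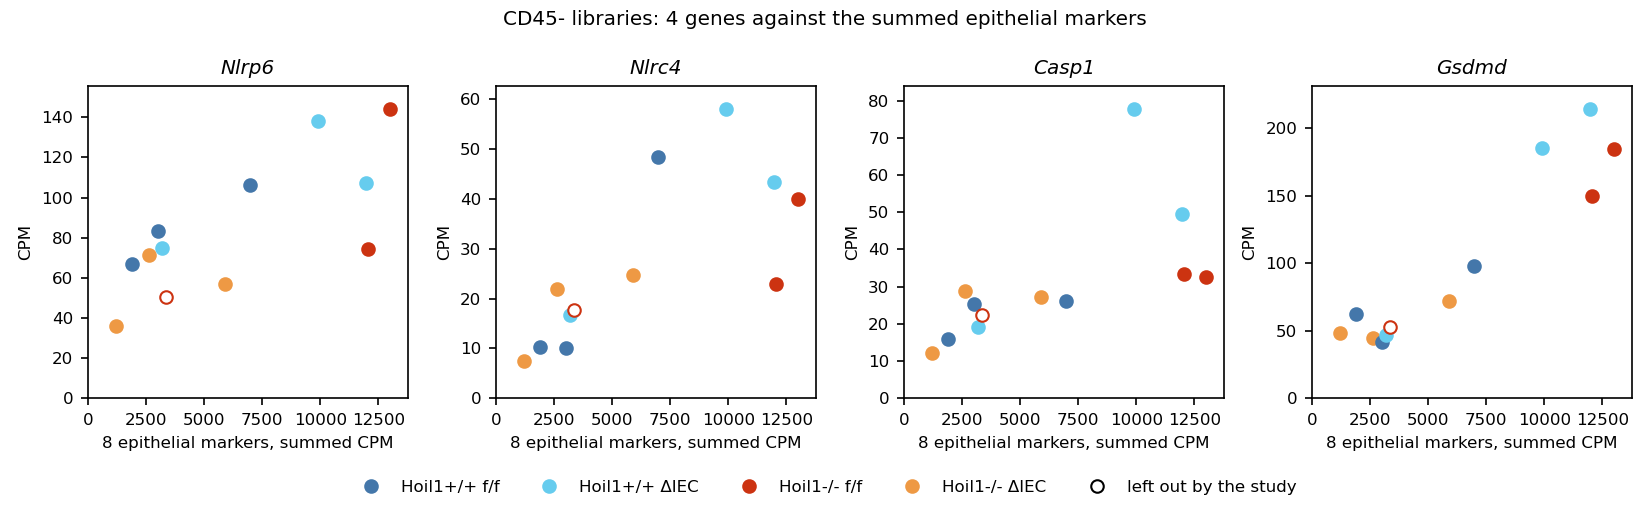
Level in CPM of *Nlrp6*, *Nlrc4*, *Casp1* and *Gsdmd* in the 12 CD45- libraries, on the vertical axes, against the summed CPM of 8 epithelial markers on the horizontal axes. Colors are genotypes and the open point is the library that the study left out. The 6 libraries with sums of 5894 CPM or more are those with the most *Gsdmd*, from 72.3 to 214 CPM.

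*Nlrc4* and *Casp1* were spread more widely between CD45- libraries than between CD45+ libraries, with coefficients of variation of 62.2% and 57.0% against 33.5% and 27.9%. Both were highest in *Hoil1*+/+ ΔIEC replicate 2, at 58.0 and 77.7 CPM, and lowest in *Hoil1*-/- ΔIEC replicate 2, at 7.38 and 12.1 CPM. The epithelial sums of these libraries were 9893 and 1219 CPM. *Pycard* ran from 34.1 CPM in *Hoil1*-/- ΔIEC replicate 2 to 247 CPM in *Hoil1*+/+ ΔIEC replicate 1. *Casp4* was lowest at 3.23 CPM in the left-out *Hoil1*-/- f/f library and at 11.2 CPM or more in the others.

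Over the 12 CD45- libraries and 14024 protein-coding genes, the genes most like *Nlrp6* were *Vdr*, the vitamin D receptor (r = 0.968), *Ggt6* (r = 0.948) and *Cgn*, which encodes the tight junction protein cingulin (r = 0.946). Those most like *Gsdmd* were *Slc7a7* (r = 0.983), *Pfkfb4* (r = 0.978) and *Ezr*, which encodes the microvillus protein ezrin (r = 0.974). *Nlrc4* was most like *Gal3st1* (r = 0.958), *Tmc4* (r = 0.931) and *Tmem183a* (r = 0.929), and *Casp1* most like *Mtch2* (r = 0.946) and *Plac8* (r = 0.933). *Pycard* was most like *Nudt19* (r = 0.920), *Mtch2* (r = 0.893) and *Lta4h* (r = 0.891). Among the members, *Nlrc4* and *Casp1* had r = 0.832 and *Pycard* and *Casp4* had r = 0.161. These correlations are descriptions of libraries that share their makeup and have no test.

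Of the other pathway genes, 0 passed the adjusted threshold for any genotype comparison in either fraction, where 51 were tested in CD45+ and 48 in CD45- cells. At an unadjusted p under 0.05 by edgeR's quasi-likelihood test, in CD45+ cells there were 4 of 51 for *Hoil1* averaged (5.85% of all genes), 8 in f/f mice (5.27%) and 5 in ΔIEC mice (6.08%). For *Il4ra* there were 10 when averaged (10.6%) and 7 within *Hoil1*-/- mice (7.03%), and 10 for the interaction (7.01%). In CD45- cells there were 2 of 48 for *Hoil1* averaged (5.28% of all genes), 9 in f/f (13.1%) and 11 in ΔIEC mice (7.66%). For *Il4ra* there were 3 when averaged (5.9%) and 16 within *Hoil1*-/- mice (17.7%), and 18 for the interaction (20.7%).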

How the data were processed

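Poly-A RNA of sorted CD45+ and CD45- ileal cells was sequenced in 24 libraries, 3 per genotype and fraction. The deposited values are raw counts per gene, which the authors made by trimming with cutadapt, aligning to mm10 with STAR and counting ENSEMBL genes with featureCounts. Versions and strand setting are not given in the sources used here. No 2 columns were identical.

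From the counts, TMM-scaled CPM were computed, and genes were kept by filterByExpr (minimum count 10, minimum total 15). edgeR 4.0.16 (R 4.3.3) quasi-likelihood tests were fitted to all genes of the 21 libraries that the study kept. One fit compared the fractions over all genotypes, treating libraries as independent. A separate fit in each fraction gave the *Hoil1* and *Il4ra* effects and their interaction. Benjamini-Hochberg adjustment covered all genes tested, with a threshold of 0.05. Effects called averaged weight both genotypes of the other gene equally. The code of the fit was run on simulated counts with known changes and the same spread for all genes. That does not measure its power in these data. Gene positions and transcript lengths are from GENCODE M21 (GRCm38), matched by identifier.

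All 9 genes were tested in each comparison, and the text does not print the values of all of them for each. Of the other pathway genes, at most 5 per direction were named by smallest adjusted p, and for each of the 9 genes the 3 most correlated protein-coding genes in the fraction where its mean was higher. Some genes that this rule names are not reported here. The members, gene lists and markers were chosen with earlier results of these data known. Alternatives were all 24 libraries, edgeR's likelihood ratio test, DESeq2 1.42.0, RLE size factors, no filter, leaving out each library, and CPM of total counts. Means over the kept libraries and exon-union lengths were added after seeing the data.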

Additional observations from a re-analysis of the deposited data

How the results depend on the processing

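Of 653 alternative values for 39 fold changes of single genes, 613 kept their direction and side of the threshold, 27 turned direction and 13 passed the threshold only in the alternative. No paired analysis was possible because the labels number no replicates and name no mouse. Between the fractions, 5 to 7 of the 9 genes were called in every alternative, beside 8472 to 9806 of all genes. For *Il4ra* in *Hoil1*-/- CD45+ cells DESeq2 called 1 gene in place of 0, and for the interaction in CD45- cells the likelihood ratio test called 1, DESeq2 called 1 and leaving out a library called 0 to 1. With all 24 libraries *Casp1* between the fractions was 0.0057, and *Casp4* for *Hoil1* in CD45- cells was -0.18 on the log2 scale. When each library was left out in turn, the averaged *Hoil1* effect in CD45+ cells ran from -0.59 to 0.19 for *Nlrp3*, from -0.16 to 0.10 for *Nlrc4* and from -0.82 to 1.33 for *Il1a*. In CD45- cells it ran from -0.57 to 0.27 for *Nlrc4*, from -0.46 to 0.0154 for *Pycard*, from -0.46 to 0.00122 for *Casp1*, from -0.10 to 0.28 for *Casp4* and from -0.27 to 0.15 for *Gsdmd*. The *Nlrp3* effect was above 0 only without *Hoil1*+/+ f/f replicate 3, and that of *Nlrc4* in CD45- cells only without *Hoil1*+/+ f/f replicate 1. *Pycard* between the fractions had an adjusted p of 0.0231 with DESeq2, 0.0468 with edgeR's likelihood ratio test and 0.0394 with RLE size factors (edgeR). It was 0.0109 without CD45- *Hoil1*-/- ΔIEC replicate 2, 0.0374 without CD45- *Hoil1*+/+ ΔIEC replicate 3 and 0.0435 without CD45+ *Hoil1*-/- ΔIEC replicate 1 (edgeR). *Nlrc4* had 0.0384 with DESeq2 and 0.0479 without CD45- *Hoil1*-/- ΔIEC replicate 2 (edgeR). Over all genes, DESeq2 made 126 calls in place of 1 for *Hoil1* averaged in CD45+ cells, and 168 in place of 3 in CD45- cells. For the CD45- interaction it made 1466 in place of 0, and edgeR made 1199 without *Hoil1*+/+ ΔIEC replicate 3. With exon-union lengths, *Pycard* stood above *Gsdmd* in CD45+ cells and *Casp4* moved from place 5 to place 7. The cause of these shifts was not tested. Counts of *Nlrp3*, *Il1a* and *Il1b* were few in CD45- cells, at 41, 52 and 51 over all 12 libraries together. *Nlrp6* had 1478 counts over the 12 CD45+ libraries and none in 4 of them. The part of depth in these values was not tested.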
